A study of Mus musculus with 6 samples.

Results

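Embryoid bodies grown from Noggin-treated J1 cells were compared with embryoid bodies grown from mock-treated J1 cells at day 4, on 1 bead array each. J1 is a line of mouse embryonic stem cells, and embryoid bodies are clumps of such cells grown in suspension, where differentiation begins. Members of the comparison were the genes whose brightest probe, named by a single gene symbol, lay above the array median on both day 4 arrays. These were 7695 of 13165 genes with a named probe. A further 487 genes passed on the Noggin array alone and 385 on the mock array alone, and these are given apart as bounds. The Noggin group had received Noggin at 150 ng/ml for 3 days before aggregation, in medium that held leukaemia inhibitory factor per the labels, and Noggin was withdrawn at day 2 of aggregation. The mock group was carried along without it, and both were then cultured without that factor. The Noggin embryoid bodies of day 4 had therefore been out of Noggin for part of the culture. The treatment entry reads the same on every array, mock arrays included, so the groups were taken from the sample source. The series holds 6 arrays, a Noggin and a mock array from each of days 0, 2 and 4, so a difference between Noggin and mock at day 4 has no replicate check, and the spread between cultures and Noggin cannot be told apart.

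Noggin is a secreted protein that binds bone morphogenetic proteins (BMPs) and keeps them from their receptors. In mouse embryonic stem cells, BMP signals together with leukaemia inhibitory factor help to hold the naive pluripotent state, in which a network of factors including Esrrb, Klf2, Tfcp2l1 and Nanog is active. On leaving that state, cells pass through an epiblast stage and, where Wnt, Nodal and BMP signals act, into the primitive streak, from which mesoderm and endoderm arise. Mesp1 marks the nascent mesoderm from which heart and vessels develop, and the labels give heart differentiation as the reason for the arrays.

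At day 4 the largest positive differences belonged to Mesp1, 10.5-fold higher with Noggin, and Evx1, 8.63-fold higher, and the largest negative ones to Dnmt3l, 9.85-fold lower, and Esrrb, 9.06-fold lower. Genes above the median of both day 4 arrays are called measured here. Of 9 measured genes of paraxial and lateral mesoderm, from 16 with a probe, 8 were higher with Noggin. Of 8 measured genes of naive pluripotency, from 15 with a probe, 6 were lower. Of all 7695 genes 53.7% were higher and 44.6% lower. The log2 medians of these 2 lists were 1.72 and -1.73, and 0.61 and -0.59 with no filter on dim genes. All 16 measured genes of sterol synthesis were higher with Noggin and all 18 of the amino acid starvation response were lower. Housekeeping groups such as the proteasome and the respiratory chain stayed near 0.

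All levels below are log2 values of the authors' normalised table, and a difference is Noggin minus mock on that scale. A gene was counted as higher or lower when it differed by at least 2-fold, that is by 1.0 or more. By this rule 85 genes were higher with Noggin, 1.10% of the 7695, and 75 were lower, 0.975%, which together makes 160 genes or 2.08%. Counted by probe, 94 of 10005 were higher (0.940%) and 85 lower (0.850%), 179 in all or 1.79%. By gene, 12 were at least 4-fold higher and 7 at least 4-fold lower. By any amount, 53.7% of genes were higher with Noggin and 44.6% lower, and these shares are the background for the counts of list members below. The differences at day 4 had a standard deviation of 0.34 across genes, and a median of 0.02, and 0.5% of genes lay below -1.20 and 0.5% above 1.37. For the same genes the standard deviation between the Noggin and mock arrays was 0.0946 at day 0, with no gene past 2-fold, and 0.158 at day 2, with 0 genes higher and 1 lower. Median scanner signals were 159.8 with Noggin and 152 with mock at day 4, and lay between 165 and 176.55 on the other arrays. Scaling the scanner signals to a common median in place of the authors' normalisation moved the split to 63 genes higher and 91 lower. The table is not background-corrected, so the differences of dim genes are compressed. Genes just inside the 2-fold limit were Zfp362 and Krt18 at 1.0, Grhl2 at -1.01 and Slc25a36 at -1.0. Just outside it were Tmprss2 at 0.99, Ptgds at 0.98, Gnpda1 at -0.99 and Arhgef3 at -0.98.

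**Figure D1:**
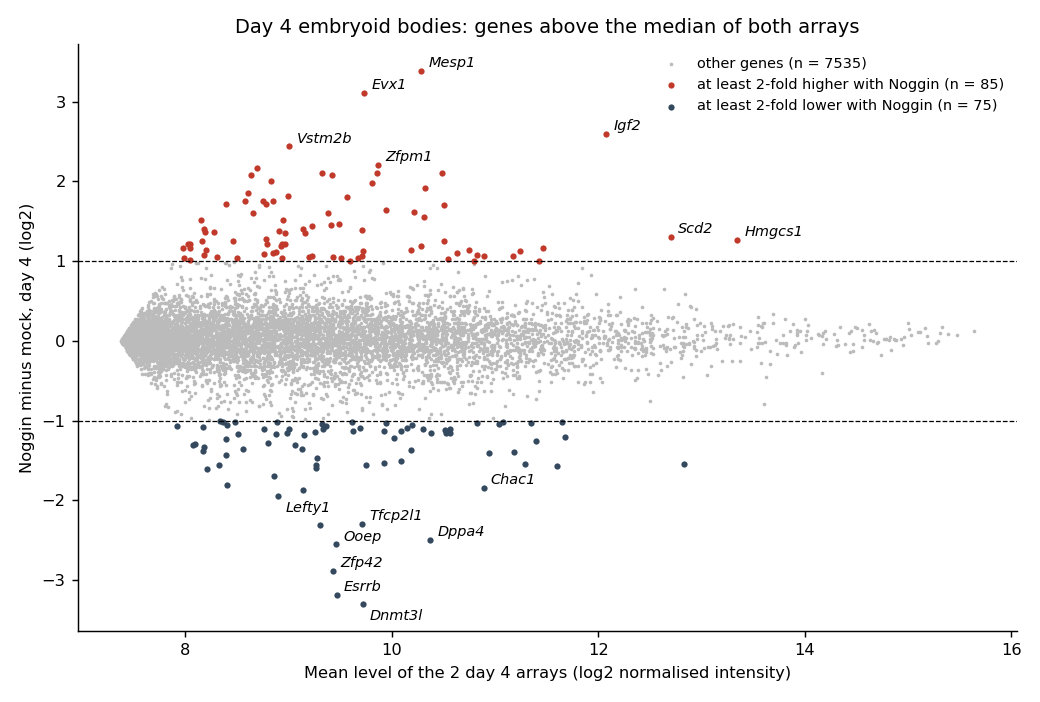
Noggin minus mock at day 4 on the log2 scale (vertical axis) against the mean log2 level on both day 4 arrays (horizontal axis), with 1 point for each of the 7695 genes. Dashed lines mark 2-fold. The 85 genes past the upper line and the 75 past the lower line are coloured, and Mesp1 and Dnmt3l stand at the ends.

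The genes that mark the 2 ends of this transition were checked first. Mesp1, a transcription factor of nascent mesoderm, stood at 6.77, 6.85 and 11.98 on the Noggin arrays of days 0, 2 and 4, and at 7.04, 6.87 and 8.59 on the mock arrays of the same days. It was below the array median of 7.37 on every array of days 0 and 2, and appeared by day 4 in both groups, to a higher level with Noggin. Evx1, a homeobox factor of the posterior primitive streak, had a like course, with 7.32, 6.77 and 11.29 on the Noggin arrays and 7.38, 6.99 and 8.18 on the mock arrays. Mesp1 was thereby the gene with the largest positive difference of all 7695, 3.39, and Evx1 ranked next at 3.11.

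Esrrb, an orphan nuclear receptor of the naive network, had 13.12, 10.41 and 7.88 on the Noggin arrays of days 0, 2 and 4, and 13.16, 11.19 and 11.06 on the mock arrays. On the mock arrays the level hardly moved after day 2, while on the Noggin arrays it went on to near the median. Dnmt3l, a catalytically inactive partner of the de novo DNA methyltransferases, had 12.61, 12.08 and 8.07 on the Noggin arrays and 12.75, 12.39 and 11.37 on the mock arrays. Its difference of -3.30 was the largest negative value, with Esrrb next at -3.18. Mmp3, the matrix metalloproteinase named in the title of the series, was near the floor at day 4, with 7.32 on the Noggin array and 7.39 on the mock array, and passed the median on the mock array alone. The markers were in accord with the labels, in that Esrrb and Dnmt3l were high on both day 0 arrays. Mesp1 and Evx1 were above the median on both day 4 arrays, but the filter asked this of every member.

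**Figure D2:**
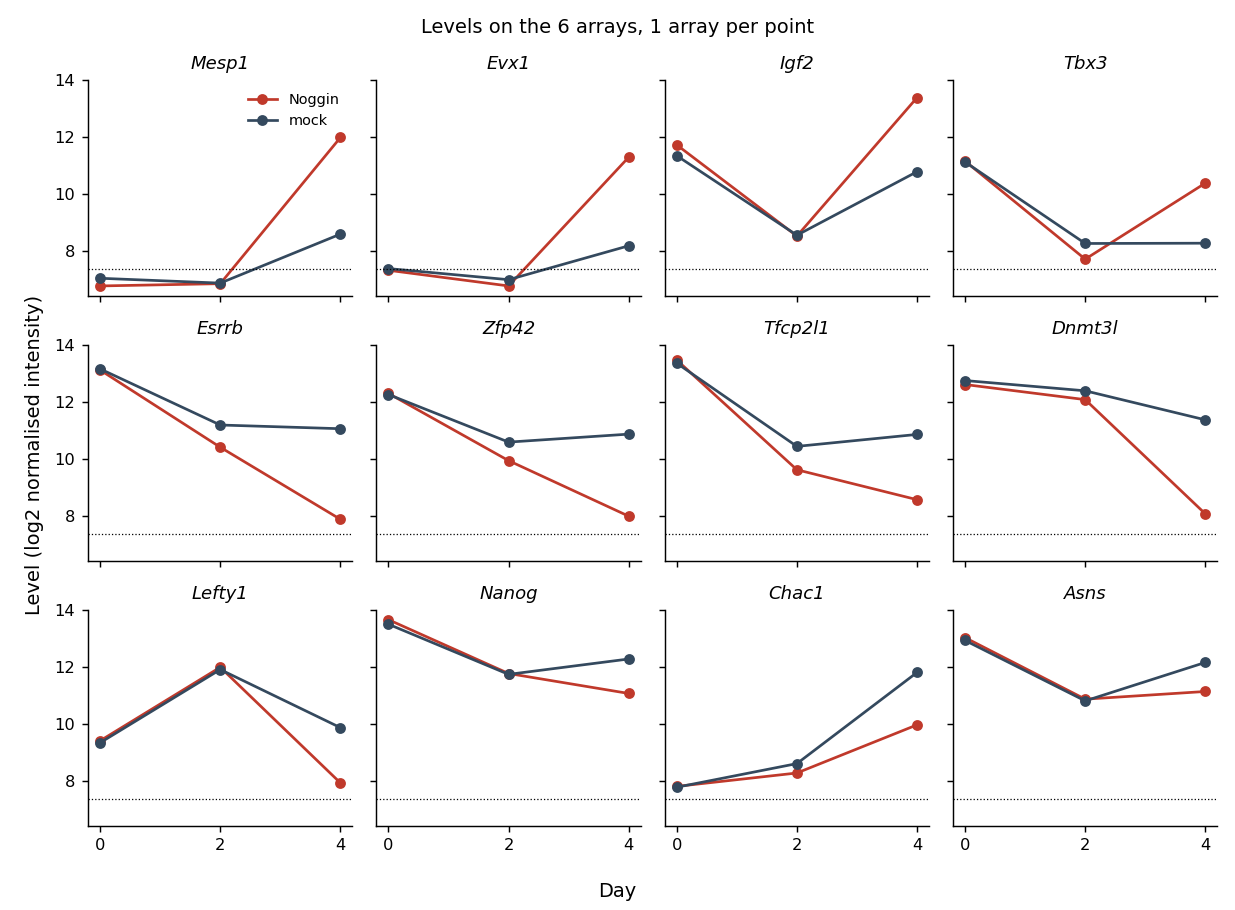
Log2 levels of 12 genes (vertical axis) by day of culture (horizontal axis) on the 3 Noggin arrays (red) and the 3 mock arrays (dark blue), with 1 array per point. The dotted line is the array median of 7.37. Mesp1 is below it on every array before day 4, and the Noggin and mock lines of Esrrb, Zfp42, Tfcp2l1 and Dnmt3l are furthest apart at day 4.

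Factors of naive pluripotency were lower with Noggin. Of 18 genes listed, 15 had a probe and 8 lay above the median of both arrays. Their median difference was -1.73, against 0.02 for all genes, with 5 members lower by 2-fold and 1 higher. Zfp42 (Rex1), a classic marker of undifferentiated stem cells, had 12.30, 9.94 and 7.99 on the Noggin arrays of days 0, 2 and 4 and 12.26, 10.59 and 10.87 on the mock arrays. Tfcp2l1, a transcription factor of the naive network, had 13.47, 9.62 and 8.57 on the Noggin arrays and 13.36, 10.44 and 10.86 on the mock arrays. In both genes the mock level was slightly higher at day 4 than at day 2, while the Noggin level was lower. Klf2 differed by -2.31 and Klf5, another Krüppel-like factor, by -1.16, while Klf4 differed by -0.32 at levels of 7.71 with Noggin and 8.03 with mock. The member past 2-fold in the other direction was Tbx3, a T-box factor used both in naive stem cells and in mesoderm, with 11.15, 7.71 and 10.38 on the Noggin arrays and 11.12, 8.26 and 8.27 on the mock arrays. All 8 members were lower on the day 2 Noggin array than on the day 2 mock array, Tbx3 included.

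Genes expressed in both naive and later pluripotent cells followed. All 12 members with a probe were above the median of both arrays and lower with Noggin, 7 of them by 2-fold, with a median of -1.07. Dppa4 and Dppa2, neighbouring genes for chromatin proteins of pluripotent and germ cells, differed by -2.49 and -1.81. Nanog had 11.07 on the Noggin array and 12.28 on the mock array (-1.21), and Sox2 had 9.96 with Noggin and 11.08 with mock (-1.12). Pou5f1, which encodes Oct4, stayed within 2-fold at 10.02 with Noggin and 10.94 with mock (-0.92), and L1td1 and Utf1 differed by -1.53 and -1.02. Sall4 and Lin28a, which are also used in later progenitors, were closest to 0 at -0.22 and -0.23. In bulk RNA of embryoid bodies, fewer cells of a type and less RNA per cell cannot be told apart.

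By contrast the 9 epiblast genes measured on both arrays had a median of -0.23, with none past 2-fold. Fgf5, the standard marker of the post-implantation epiblast, was at 10.65 with Noggin and 10.91 with mock, and Otx2 differed by -0.52 and Etv5 by -0.82. The DNA methylation genes centred on -0.03. Besides Dnmt3l the largest difference among them was that of Tet1, a dioxygenase that oxidises methylated cytosine, at -0.85. Dnmt3b, a de novo methyltransferase that works with Dnmt3l, was at 13.57 with Noggin and 13.60 with mock. Germline and oocyte genes numbered 5 above both medians, all lower with Noggin (median -1.10), with Ooep at -2.55, Tex19.1 at -1.29 and Rhox5 at -1.10. The LIF and Stat3 pathway had a median of -0.15 over 5 genes, Polycomb genes one of -0.18 over 11, where Cbx7 at -1.16 was past 2-fold.

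**Figure D3:**
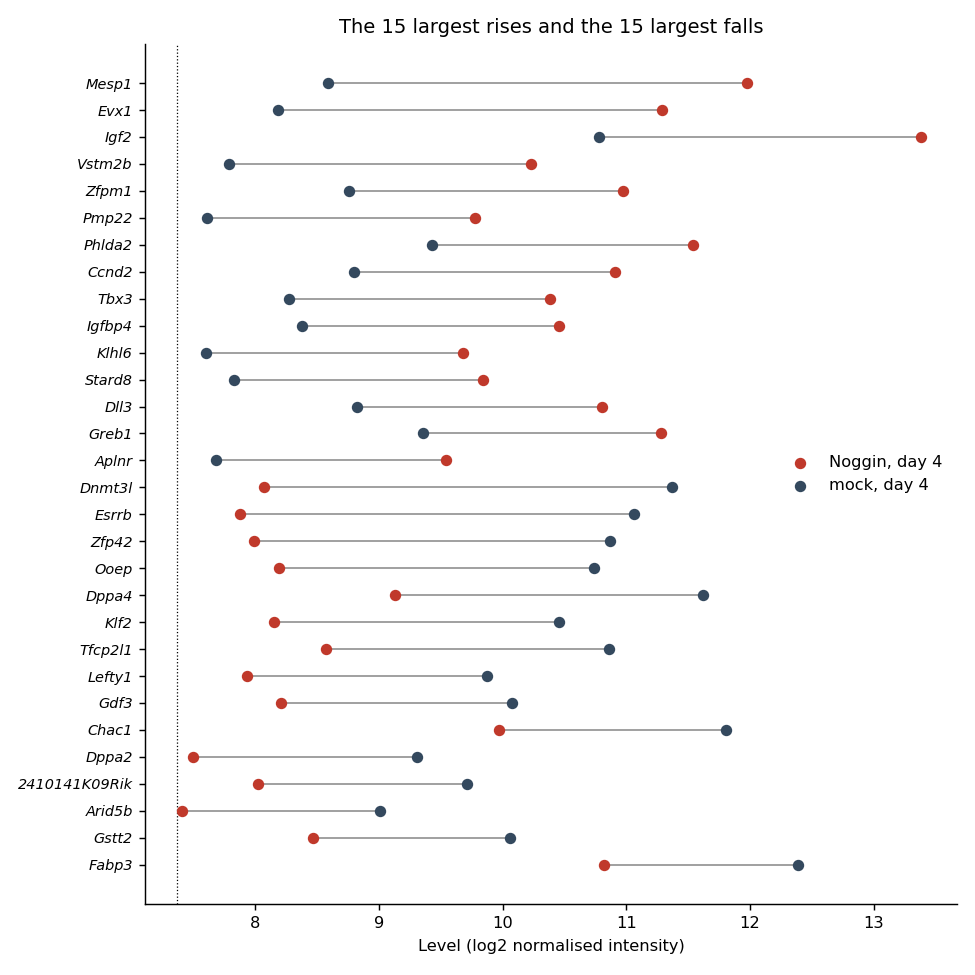
Log2 levels on the day 4 Noggin array (red) and the day 4 mock array (dark blue) of the 15 genes with the largest positive and the 15 with the largest negative differences, from Mesp1 at 11.98 with Noggin and 8.59 with mock down to Fabp3 at 10.82 with Noggin and 12.39 with mock. The dotted line is the array median of 7.37, near which many mock levels of the upper set and Noggin levels of the lower set lie.

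Among primitive streak genes, 10 of 15 with a probe were above both medians, with 6 higher and 4 lower and a median of 0.83. Besides Mesp1 and Evx1, the genes past 2-fold were Tbx6, a T-box factor of presomitic mesoderm, at 9.26 with Noggin and 7.54 with mock (1.72), and Eomes, a T-box factor of streak and definitive endoderm, at 11.32 with Noggin and 10.18 with mock (1.14). Sp5, a Wnt target, and Lhx1 differed by 0.91 and 0.76. The 4 lower members were Gsc at -0.60, Foxa2 at -0.20, Fgf8 at -0.12 and Cdx4 at -0.03. Wnt3 and Cdx2 were above the median on the Noggin array alone.

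Paraxial and lateral mesoderm genes had the highest median of the 45 lists, 1.72 over 9 genes, 8 of them higher with Noggin and 5 by 2-fold. Dll3, a Notch ligand of the presomitic mesoderm, had 7.59, 8.68 and 10.80 on the Noggin arrays of days 0, 2 and 4 and 7.70, 8.41 and 8.82 on the mock arrays. Aplnr, the apelin receptor of early heart and vessel progenitors, stayed below the median on all arrays of days 0 and 2 and had 9.54 with Noggin and 7.68 with mock at day 4. Pdgfra, a growth factor receptor used as a surface marker of mesoderm, differed by 1.76 and the homeobox factor Msx1 by 1.72. Tcf15, expressed in somites as well as in epiblast cells, was the 1 member lower, at -0.48 from levels of 7.45 with Noggin and 7.93 with mock. Without the filter on dim genes the median over the 16 members with a probe was 0.61.

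Genes above the median on 1 of the day 4 arrays alone were given as bounds. Setting the mock side to the array median of 7.37, Foxc2, a forkhead factor of paraxial mesoderm and vessels, was at least 4.69-fold higher with Noggin, from 9.60 with Noggin and 7.35 with mock. By the same bound Sox9, a factor of neural crest and cartilage, was at least 3.51-fold higher, Gata2 at least 2.89-fold and Gata3 at least 2.28-fold. Prdm6 and Defa31 were at least 2.16-fold and 2.0-fold higher, and Irx3 and Wnt5a at least 1.84-fold and 1.53-fold. On the mock side Nupr1, a small stress-response protein, was at least 4.20-fold lower with Noggin, from 7.08 with Noggin and 9.44 with mock. Zfp819 was at least 3.16-fold lower, Jam2 3.01-fold, Rpl39l 2.75-fold, Fam25c 2.27-fold, AU018091 2.25-fold, Triml1 1.88-fold and Enox1 1.59-fold. In all, 6 of 487 such genes were bounded at 2-fold or more on the Noggin side and 6 of 385 on the mock side.

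Few heart genes were measured on both arrays. Of 12 cardiac transcription factors with a probe, 5 were above both medians, all 5 higher with Noggin by 0.02 to 0.88, with none past 2-fold and a median of 0.67. Gata4 had 10.08 with Noggin and 9.20 with mock, Gata6 differed by 0.67 and Isl1, a factor of the second heart field, by 0.76. Srf, the gene closest to 0, changed sign under median scaling. Nkx2-5 and Tbx20 were near the array median of 7.37 on both arrays and passed it on the Noggin array alone. Nkx2-5 had 7.43 with Noggin and 7.32 with mock, and Tbx20 had 7.41 with Noggin and 7.26 with mock. Tbx5, Mef2c and Myocd were above the median on neither array. Of the contractile genes 6 of 14 were measured on both arrays, with a median of 0.30. Myl7, an atrial myosin light chain that appears early, had 9.09 with Noggin and 7.83 with mock (1.26), and Myh7 differed by 0.65. Myh6, Tnnt2, Ttn and Nppa, which belong to beating heart muscle, were above the median on neither array.

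The haemangioblast factors Tal1, Lmo2 and Etv2 were higher with Noggin. Only 4 of 19 blood and endothelial genes with a probe lay above both medians, and 3 of them passed 2-fold. Tal1 had 9.46 with Noggin and 7.86 with mock (1.6), Lmo2 had 9.54 with Noggin and 8.33 with mock (1.21), and Etv2 had 11.43 with Noggin and 10.36 with mock (1.07). These encode transcription factors at the top of the blood and endothelial programmes. Flt1, a receptor of vascular endothelial growth factor, differed by -0.03, and Cdh5, Tek, Gata1 and the embryonic globin genes were above the median on neither array. Zfpm1, which encodes the Gata cofactor Fog1 and is not on that list, had 8.29, 8.05 and 10.97 on the Noggin arrays of days 0, 2 and 4 and 8.41, 8.11 and 8.76 on the mock arrays.

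Signalling pathways differed in which way they moved. Several inhibitors and ligands of the Nodal pathway were lower with Noggin. Lefty1, a feedback inhibitor, had 9.41, 11.99 and 7.93 on the Noggin arrays of days 0, 2 and 4 and 9.34, 11.91 and 9.87 on the mock arrays. The Noggin and mock values of Lefty1 were alike at day 2, when it was highest in both. Gdf3, a ligand of the same receptors, differed by -1.87, Lefty2 by -1.04, the antagonist Cer1 by -0.79 and Nodal itself by -0.71. Smad3 stood at 0.76 and the receptor gene Acvr2b at 0.61, while the other measured receptors, co-receptors and Smads were near 0, with Smad2 at 0.10, Acvr2a at 0.07, Cfc1 at 0.01 and Tdgf1 at -0.10. The median over the 15 members was 0.00, with 7 higher and 7 lower, and turned to -0.05 under median scaling.

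All 7 measured BMP ligands, receptors and Smads were higher with Noggin, with a median of 0.44. Bmp4 itself had 8.97 with Noggin and 7.60 with mock (1.37), and the transducer Smad1 had 10.83 with Noggin and 9.92 with mock (0.91). Of 7 BMP target genes 6 were higher, 3 by 2-fold, with a median of 0.94: Tbx3, Msx1 and Hey1 (1.28) passed 2-fold, Smad6 differed by 0.94, Id1 by 0.62 and Id3 by 0.56, and Id2 was equal at 9.39 on both arrays. The antagonists were divided, with Chrd at -0.65 and Cer1 at -0.79 lower, and Smad6, Fst (0.37) and Twsg1 (0.29) higher. Their median of 0.29 over 5 genes turned to -0.18 with a stricter filter on dim genes.

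In the Wnt pathway 10 of 11 measured members were higher with Noggin, 3 by 2-fold, with a median of 0.47. Apcdd1, a membrane inhibitor of Wnt signalling, had 9.46 with Noggin and 7.71 with mock (1.75), the secreted inhibitor Frzb differed by 1.52 and cyclin D1 (Ccnd1) by 1.08. The direct target Axin2 was dim, at 7.83 with Noggin and 7.46 with mock. In the Notch pathway all 11 measured members were higher, 4 by 2-fold, with a median of 0.55. The receptor Notch1 had 9.64 with Noggin and 8.29 with mock (1.35), the target and feedback inhibitor Nrarp 9.40 with Noggin and 8.18 with mock (1.22), and the target Hey1 9.42 with Noggin and 8.14 with mock. Notch4 at 0.09 changed sign under median scaling, which left 10 of 11 higher. FGF pathway genes had a median of -0.03, with 5 of 13 higher and 8 lower. Fgf10, a ligand made by the second heart field, was at 9.91 with Noggin and 8.09 with mock (1.82). Dusp6 and Etv5, targets of the pathway, were the lowest members at -0.63 and -0.82. Other members were not lowered alike, with Spry2 at -0.17, Il17rd at -0.01, Etv4 at 0.07, Spry4 at 0.14 and Spred1 at 0.42. Dusp4 was at -0.05, with a second passing probe at -0.86. Both measured genes of retinoic acid handling passed 2-fold, the degrading enzyme Cyp26a1 at 1.13 and the binding protein Crabp1 at 1.17, though the second passing probe of Cyp26a1 read 0.23 and its call rests on 1 probe. Among Hox genes and cofactors, Meis2 differed by 1.04 and Hoxb2 by 0.91, and 9 of 14 with a probe were above the median on neither array.

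Igf2, the fetal insulin-like growth factor, had the third largest positive difference. It had 11.72, 8.52 and 13.38 on the Noggin arrays of days 0, 2 and 4 and 11.34, 8.55 and 10.78 on the mock arrays, so that its lowest level was at day 2 in both groups and the difference at day 4 was 2.60. Phlda2, an imprinted growth inhibitor of the placenta, had 8.97, 10.16 and 11.54 on the Noggin arrays and 9.12, 10.66 and 9.43 on the mock arrays (2.11). Imprinted genes as a list had 9 of 13 higher and a median of 0.74, with Peg3 at 1.13, Cdkn1c at 0.95, Dlk1 at 0.93, Mest at -0.52 and Impact at -0.51, and under median scaling 8 of 13 were higher. Igf2, Phlda2 and Cdkn1c are known to lie in the same imprinted region of chromosome 7. That chromosome held 574 measured genes, 10 of them higher by 2-fold and 5 lower, where 1.10% of all 7695 genes were higher and 0.975% lower. Whether the shared region plays a part was not tested. Chromosome 8 held 413 measured genes, 9 higher and 5 lower, and chromosome 6 held 349, 7 higher and 6 lower. Among the binding proteins that hold insulin-like growth factors outside the cell, Igfbp4 differed by 2.08 and Igfbp5 by 1.21, while Igfbp3 differed by -1.13 and Igfbp2 by -0.65. Cyclin D2 (Ccnd2) had 9.92, 9.85 and 10.91 on the Noggin arrays of days 0, 2 and 4 and 9.77, 10.20 and 8.80 on the mock arrays. The median over 21 cell cycle and replication genes was -0.04, with Ccnd2 and Ccnd1 as the members past 2-fold and Top2a at -0.52 as the lowest.

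Matrix genes, those of basement membrane included, went both ways. Collagen IV chains of basement membrane were higher with Noggin, with Col4a2 at 10.77 with Noggin and 9.13 with mock (1.64) and Col4a1 at 10.14 with Noggin and 8.68 with mock (1.46). Fibronectin (Fn1), which mesoderm cells migrate on, had 10.41 with Noggin and 9.02 with mock (1.39), and fibulin-2 (Fbln2) differed by 1.52 from a mock level of 7.39. Hspg2 at 0.61 and Nid1 at 0.37, further basement membrane genes, were on the same side, while Col18a1 at -0.69, Nid2 at -0.51 and Lamc1 at -0.42 were lower. The list of 14 genes had a median of 0.42, with 9 higher, 4 of them by 2-fold, and 5 lower. Of the metalloproteinases and inhibitors none passed 2-fold, with Mmp2 at 0.83 and Timp1 at -0.61 at the ends and a median of 0.35. Mesenchymal genes (4 measured) and epithelial genes (10 measured) had medians of 0.41 and 0.15. Cdh1, which encodes E-cadherin, differed by 0.27 and Cdh2, which encodes N-cadherin, by 0.35, and neither passed 2-fold. The keratin Krt18 was at 1.0 and the epithelial factors Grhl2 and Esrp1 were at -1.01 and -0.64.

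Among called genes outside the lists, a group of axon and vessel guidance genes was picked out after its values were seen. Nrp1, a co-receptor for semaphorins and vascular endothelial growth factor, had 9.73 with Noggin and 7.97 with mock (1.76). Its plexin partners Plxna2 and Plxnd1 differed by 1.09 and 1.08, Robo1 by 1.04, the ephrin Efnb1 by 1.38, and Dpysl2, a transducer of semaphorin signals, by 1.71. The glypicans Gpc3 and Gpc2, picked in the same way, differed by 1.25 and 1.06. Txnip and its relative Arrdc4, glucose-responsive arrestin-like proteins that limit glucose uptake, were lower with Noggin, Txnip at 8.98 with Noggin and 10.53 with mock (-1.55) and Arrdc4 at 8.56 with Noggin and 9.74 with mock (-1.18). Further genes among the 15 largest positive differences were Vstm2b (2.44), a membrane protein of the immunoglobulin superfamily, Pmp22 (2.17), known from myelin, Klhl6 (2.08), Stard8 (2.01) and Greb1 (1.92), an oestrogen-responsive gene. Among the 15 largest negative differences were also Arid5b (-1.6), Gstt2 (-1.59), Fabp3 (-1.57), a fatty acid binding protein, and 2410141K09Rik (-1.69).

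Every measured gene of sterol synthesis was higher with Noggin. Of 19 with a probe, 16 lay above both medians, their median was 0.82, and 6 passed 2-fold. Hmgcs1, which makes the precursor of mevalonate, had 13.98 on the Noggin array and 12.71 on the mock array (1.27), the highest level of any gene counted as higher. Stard4, a cholesterol carrier, differed by 1.19, and Nsdhl, Fdps, Cyp51 and Msmo1, enzymes along the path, by 1.10, 1.07, 1.03 and 1.0. Insig1, a sterol sensor, and Ebp were closest to 0 at 0.07 and 0.27. Under median scaling and under background correction all 16 were still higher. Genes of fatty acid synthesis were also all higher, 9 of 9 with a median of 0.38, and the stearoyl-CoA desaturases Scd1 (11.09 with Noggin, 9.53 with mock) and Scd2 (13.36 with Noggin, 12.05 with mock) passed 2-fold. Me1 at 0.06 changed sign under median scaling.

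Genes of sterol synthesis are known to be switched on through a sterol response element, so their promoters were searched for TCACNCCAC on both strands, from 250 bases before to 50 bases after each start. Promoter sequences were those of RefSeq on GRCm38.p6. Of the 16 genes, 13 had a promoter in that table and 1, Hmgcs1, held a match. A gene counted as a match if any of its windows held the letters. Matches were found in 1.24% of 32851 promoter windows, and in 1.37% of the 6364 genes above both medians with a window. The 250 bases before the start of Hmgcs1 (chr13:119690101-119690350, plus strand) are shown because its element lies there, with the match in capitals 137 bases before the start. No match says only that these letters are not in the window.
Hmgcs1: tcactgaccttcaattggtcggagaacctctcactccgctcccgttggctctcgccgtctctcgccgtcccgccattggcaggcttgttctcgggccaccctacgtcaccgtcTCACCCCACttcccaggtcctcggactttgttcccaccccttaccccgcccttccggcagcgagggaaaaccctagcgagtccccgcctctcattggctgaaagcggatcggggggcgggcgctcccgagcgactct

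The amino acid starvation response ran the other way. All 18 measured genes of 22 with a probe were lower with Noggin, 6 by 2-fold, with a median of -0.79, and all 18 were still lower under median scaling and under background correction. These genes encode amino acid transporters, synthetases of serine and asparagine, and tRNA synthetases, and are known as targets of the transcription factor Atf4. Chac1, which breaks down glutathione and is among the sharpest of such targets, had 7.81, 8.28 and 9.97 on the Noggin arrays of days 0, 2 and 4 and 7.78, 8.61 and 11.81 on the mock arrays. It was higher at day 4 than before in both groups, and most so with mock. Asns, asparagine synthetase, had 13.03, 10.87 and 11.14 on the Noggin arrays and 12.93, 10.81 and 12.16 on the mock arrays. Slc7a3, a transporter of cationic amino acids, differed by -1.39, the seryl-tRNA synthetase gene Sars by -1.10, Mthfd2 by -1.03 and Slc7a5 by -1.01. Atf4 itself had 8.68 with Noggin and 9.44 with mock (-0.76). Wars, Shmt2 and Gars were closest to 0, at -0.03, -0.21 and -0.36. Heat shock and endoplasmic reticulum stress genes had a median of -0.02 over 9 genes, with Hspb1 at -0.78 and Hmox1 at 0.64, and p53 targets one of -0.14 over 12, with Gadd45a at -0.74.

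The same promoter windows were searched for TGATGNAA on both strands, a form of the composite element that Atf4 binds. Of these 18 genes, 13 had a window and 4 held a match, 30.8%. The share was 2.58% of the 6364 genes above both medians with a window, and 3.97% of the 32851 windows. The 4 were Chac1 (-1.84), Asns (-1.02), Aars (-0.44) and Gars (-0.36). The list was drawn from known Atf4 targets, so a share above that of all genes comes with its choice. It does not bear on the difference between Noggin and mock, and a part of Atf4 was not tested. Among the 75 genes lower by 2-fold, 58 had a window and 6 held a match (10.3%), namely Asns, Chac1, Fabp3, Arid5b, Chchd10 and Usp26. The 250 bases before the starts of Chac1 (chr2:119350992-119351241, plus strand) and Asns (chr6:7693210-7693459, minus strand) are shown because these were the members past 2-fold with a match, with the matched letters in capitals and each read along its gene. The match starts 193 bases before the start of Chac1 and 23 bases before that of Asns.
Chac1: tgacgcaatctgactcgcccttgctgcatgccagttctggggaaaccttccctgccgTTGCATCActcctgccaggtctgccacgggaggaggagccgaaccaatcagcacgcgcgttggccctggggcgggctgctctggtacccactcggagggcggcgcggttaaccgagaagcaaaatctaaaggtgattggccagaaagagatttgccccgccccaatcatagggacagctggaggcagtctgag
Asns: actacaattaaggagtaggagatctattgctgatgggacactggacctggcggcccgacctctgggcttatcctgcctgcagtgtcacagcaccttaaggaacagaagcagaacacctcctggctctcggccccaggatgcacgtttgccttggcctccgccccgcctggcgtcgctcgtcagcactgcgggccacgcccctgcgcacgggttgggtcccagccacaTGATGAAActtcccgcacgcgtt

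Other motifs were searched in the same windows on both strands. Sets of genes were again counted by gene, beside the 6364 genes above both medians with a window. The T-box half-site TCACACCT was found in 1.28% of all windows and in 0.959% of the 6364 genes. Among genes higher by 2-fold, 63 had a window and 1, Mesp1, held this site. The octamer ATTTGCAT was found in 1.74% of all windows and in 1.51% of the 6364 genes. It was in 4 of the 63 (Evx1, Nrarp, Egln3 and Asb4) and in 3 of 58 of the lower genes (Zfp42, Gcnt2 and Chchd10). The Esrrb site TCAAGGTCA was in 0.423% of all windows, in 0.346% of the 6364 genes and in 0 of either set. The RBPJ site GTGGGAA was in 6.38% of all windows and in 6.84% of the 6364 genes. It was in 5 of the 63 (7.94%), in 10 of 58 of the lower genes (17.2%) and in 0 of 8 measured Notch genes with a window.

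Markers of other cell types were read as well. Definitive endoderm genes had a median of -0.21 over 8 members, with Cxcr4 at 0.89, Gata6 at 0.67, Cer1 at -0.79 and none past 2-fold. Primitive and visceral endoderm genes had one of -0.08 over 14, where the members past 2-fold were Pdgfra, Col4a2 and Col4a1, which mesoderm and its matrix share, while Hnf4a was at -0.06 and Afp, Apob and Cubn were above the median on neither array. Neuroectoderm genes were mostly dim, with 4 of 15 measured on both arrays, a median of 0.12 and Pax6, Zic1 and Olig2 above the median on neither. Trophoblast genes had a median of 0.55 over 5, with Eomes and Krt18 higher and Tfap2c at -1.07, and Elf5 and Tpbpa on neither array. Fibroblast genes had a median of 0.36 over 6, which turned to -0.08 over 2 genes with a stricter filter, with Fbln2 past 2-fold and Col1a1, Dcn and Postn above the median on neither array. The part of these markers in the results above was not tested.

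The remaining groups, housekeeping ones among them, lay closer to 0. Ribosomal protein genes had a median of 0.08 over 19, which turned to -0.06 under median scaling, and values between -0.27 and 0.18. The proteasome had a median of -0.03 over 20 genes and the respiratory chain one of -0.04 over 19. Glycolysis genes had a median of 0.19 over 13, with the glucose transporter Slc2a1 at 0.65 and Gapdh at -0.14, and hypoxia genes one of 0.26 over 9, with Egln3 at 1.19 and Pdk1 at -0.89. Immediate-early genes centred on -0.10, with Dusp1 at -0.59. The annexins, S100 proteins and galectins centred on 0.14, with Lgals3 at -1.30 and Anxa2 at 0.70. Over the 45 lists, 404 genes were measured on both arrays, and 73 of the 160 called genes were on a list, 44 higher and 29 lower. Of all 7695 genes 2.08% were called. The lists were chosen with earlier results of these data known, so the number of calls on them is not a finding. Without the filter on dim genes, list medians lay closer to 0: -0.59 for naive pluripotency, -0.12 for germline, 0.45 for primitive streak, 0.13 for cardiac factors, 0.10 for blood and endothelium, 0.26 for Notch, 0.65 for BMP targets, 0.17 for retinoic acid, 0.14 for imprinted and 0.23 for trophoblast genes.

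**Figure D4:**
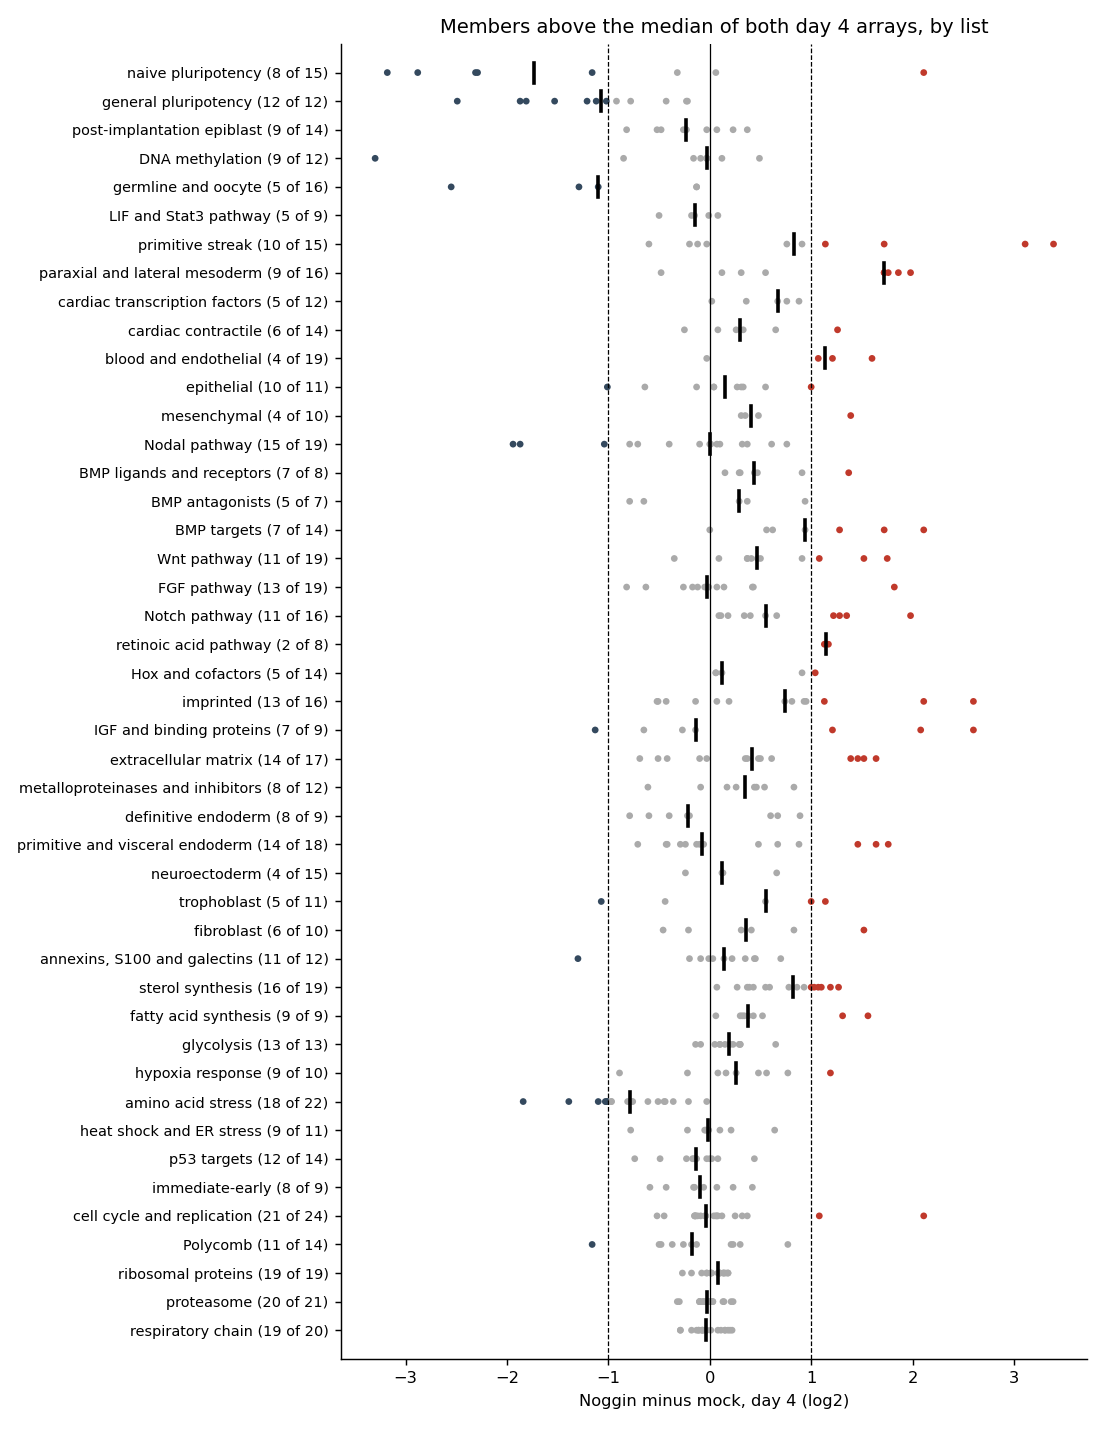
Noggin minus mock at day 4 on the log2 scale (horizontal axis) of each list member above the median of both arrays, 1 point per gene, by gene list (rows, with the number shown of the number with a probe). Black bars are list medians, dashed lines mark 2-fold and points past it are coloured. The sterol synthesis points all lie right of 0 and the amino acid stress points all lie left of it, while the ribosomal, proteasome and respiratory chain points cluster at 0.

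Probes for the same gene gave a check within the 2 arrays. Over 2905 pairs of probes from 1828 genes, both above the medians, the differences had r = 0.611 at day 4, against 0.391 at day 2 and 0.156 at day 0. These pairs share the RNA and the arrays, so they bear on the probes and not on the cultures. Over all 2905 pairs, 64.5% had the same sign. In 43 pairs the brighter probe was past 2-fold. In all 43 the dimmer probe had the same sign, though some read as little as -0.02, and in 13 it was past 2-fold too. The further probes of Ccnd2 read 1.98 and 0.78 beside 2.11, that of Greb1 1.82 beside 1.92, and those of Dppa4 -1.77 and -1.58 beside -2.49. The second value of Ccnd2 came from a probe above the median on the Noggin array alone, and both of Dppa4 from probes above it on the mock array alone. Less alike were Igfbp4, with 1.20 beside 2.08, and Tbx3, with 0.84 beside 2.11 from a probe above the median on the Noggin array alone. Further called list members had a second passing probe on the same side but under 2-fold, among them Nsdhl (0.27 and 0.46), Cyp51 (0.54), Fdps (0.65) and Stard4 (0.93) of sterol synthesis, Sars (-0.30), Peg3 (0.34), Eomes (0.93), Ccnd1 (0.49 to 0.82) and Nanog (-0.94 from 1 of 2). The second probe of Asns read -1.76 beside -1.02. The second probe of Klhl6 read 0.12 and that of Dppa2 -0.16, both from probes that failed the filter. The largest gaps between probes that passed were those of 2410141K09Rik (-1.69 and -0.03), Mtf2 (0.77 and -0.66), Snurf (-1.25 and -0.02), Gstt2 (-1.59 and -0.48), Alg13 (-1.28 and -0.19) and Enah (-1.22 and -0.17), with the brighter probe first. The calls of 2410141K09Rik, Snurf, Gstt2 and Alg13 thus rest on 1 probe each. Enah was not called, since its brightest probe stood at -0.92, and the direction of Mtf2 is not settled.

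The day 2 pair of arrays shares no array with the day 4 pair. Over 7108 genes above the median of all 4 arrays the Noggin minus mock differences at day 2 and day 4 had r = -0.041. Of the 75 genes lower by 2-fold at day 4, 54 were already lower at day 2 (72.0%), against 52.0% of all genes. Of 61 higher by 2-fold at day 4, 26 were higher at day 2 (42.6%), against 45.3% of all. Among the naive factors, the day 2 difference of Klf5 stood at -0.93, Tfcp2l1 at -0.82, Esrrb at -0.78, Klf2 at -0.76 and Zfp42 at -0.65, while Lefty1 stood at 0.08. Mesp1 is not among the 7108 genes. It was below the median on both day 2 arrays, at 6.85 with Noggin and 6.87 with mock, so its value of -0.02 says little. The list medians at day 2 were -0.71 for naive pluripotency, -0.07 for amino acid stress, -0.02 for sterol synthesis and 0.01 for the Notch pathway, over the same members as at day 4.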

How the data were processed

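Total RNA extracted with Trizol was labelled as biotinylated cRNA and read in 1 colour on Illumina Mouse-6 bead arrays, per the labels' protocols. The authors deposited 1 intensity per probe for 27496 probes of each array, neither background-subtracted nor scaled, as the values show, and a log2 table of 27495 probes. That table matches quantile-normalised log2 intensities within 0.006 for 27491 probes, with the same median on every array, and its values were used here. The scanner software is not given in the sources used here. GEO's platform annotation named 19420 probes by 1 symbol, 6 by several and 8069 by none, and genes were named only through probes with 1. For 19390 probes the gene identifier was found in the RefSeq table of GRCm38.p6, with 0 symbols updated.

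The brightest probe over the day 4 arrays stood for a gene. Differences of 1 array from 1 array carry no test. Alternatives were background correction with normexp (offset 50) and quantile normalisation in limma 3.58.1 (R 4.3.3), median scaling of the intensities, other filters on dim probes, the mean over probes, and a 1.5-fold limit. The counting of calls was tried on simulated data, with the noise of the day 0 pair of arrays and shifts added to bright probes alone. That trial bears on the counting and not on the spread between cultures or on dim genes. Named genes were the 15 largest differences on each side, the 8 largest on each side among genes above the median of 1 array, the markers and Mmp3, the list members at the ends or past 2-fold (up to 4 per end), the 6 genes with the least alike probes, and genes of opposite sign at days 2 and 4. Precision is limited by the number of arrays. The genes and the 45 lists were chosen with earlier results of these data known.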

Additional observations from a re-analysis of the deposited data

Results flagged for a closer look

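For 10 genes the Noggin minus mock difference had opposite signs at day 2 and day 4, with at least 0.5 on the log2 scale on both days. Each day is 1 pair of arrays, and the difference between the days was not tested. Of the genes higher with Noggin at day 4, Tbx3 stood at 2.11 after -0.55 at day 2, and Phlda2 at 2.11 after -0.50. Mtf2, a Polycomb partner, stood at 0.77 after -0.90, though its second probe was at -0.66 at day 4. Vangl1, a planar polarity protein, stood at 0.65 after -0.55, the haem oxygenase gene Hmox1 at 0.64 after -0.78, and Acat3 at 0.58 after -0.77. Of the genes lower at day 4, the condensin subunit gene Smc4 stood at -0.51 after 0.56. Its 2 further passing probes read -0.02 and -0.09 at day 4. Rraga, a GTPase of amino acid sensing, stood at -0.70 after 0.69, and Zfp97 at -0.72 after 0.72. The histone demethylase gene Kdm7a stood at -0.73 after 0.53, though its second passing probe read 0.28 at day 4. The day 4 differences of Smc4 and Kdm7a thus rest on 1 probe each. For Tbx3 the Noggin level was higher at day 4 (10.38) than at day 2 (7.71) and the mock level was close on both days (8.27 at day 4, 8.26 at day 2), while for Phlda2 the Noggin level was higher at day 4 (11.54) than at day 2 (10.16) and the mock level lower (9.43 at day 4, 10.66 at day 2).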

How the results depend on the processing

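All 160 called genes kept their direction under background correction, under median scaling and with the mean over probes, and 160, 138 and 144 of them stayed past 2-fold. The count of genes was 92 (45 higher, 47 lower) and of probes 102 (49, 53) above the 75th percentile of both arrays, where fewer genes are tested, and 480 (251, 229) and 580 (284, 296) at 1.5-fold. Background correction gave 216 genes, 114 higher and 102 lower, and median scaling 154, with 63 higher and 91 lower and a median of all genes of -0.058.

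List medians moved most with the filter on dim genes, which changes the members counted. With genes above the median of at least 1 array they were -1.23 for naive pluripotency, -0.13 for germline, 1.30 for paraxial and lateral mesoderm, 0.39 for cardiac factors and 0.70 for blood and endothelium. With no filter they were -0.59, -0.12, 0.61, 0.13 and 0.10 for the same lists, 0.45 for primitive streak, 0.65 for BMP targets, 0.26 for Notch, 0.17 for retinoic acid, 0.14 for imprinted and 0.23 for trophoblast genes. Above the 75th percentile BMP antagonists turned to -0.18 and fibroblast genes to -0.08, and the medians were 1.98 for paraxial and lateral mesoderm, 0.52 for blood and endothelium, 1.39 for mesenchymal genes, 0.56 for BMP targets and 0.29 for primitive and visceral endoderm. Paraxial and lateral mesoderm stood at 1.24 under median scaling, and BMP targets at 1.26 under background correction; the cause of these shifts was not tested. The correlation between probes of a gene was 0.459 with no filter. No paired analysis was possible because each group is 1 array, and for the same reason no replicate could be left out. Signal over background limits the dim genes.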
